A study of Mus musculus with 96 samples.

Results

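Cxcl9 and Cxcl10 encode a pair of chemokines that share the receptor CXCR3, and their RNA was followed here in RAW 264.7 cells, a mouse macrophage-like line, after LPS, interferon gamma and an ATP analogue. Every array feature whose platform annotation names Cxcl9 or Cxcl10 was taken. This gave 4 features for 2 genes, of 16281 features on the array that name 10698 genes. Cxcl9 has the features M34815 and NM_008599, and Cxcl10 has NM_021274 and M86829, named here by the accession each was designed from.

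Treated RNA and RNA of untreated cells from the same set and time were labelled with Cy5 and Cy3 and hybridised together. The treatments were LPS with interferon gamma (LPS+IFNG), LPS with 2-methyl-thio-ATP (LPS+2MA), interferon gamma alone (IFNG), LPS alone and 2-methyl-thio-ATP alone (2MA). LPS, a bacterial lipopolysaccharide recognised by Toll-like receptor 4, was used at 100 ng per the labels, which give no volume, and always together with LPS-binding protein at 100 pM. IFNG was used at 5 nM and 2MA, which acts on P2 purinergic receptors, at 500 uM. All treatments were sampled at 1, 2 and 4 h, and LPS alone also at 30 min. Each of the 16 groups has 3 sets with 2 arrays each, 1 for each dye orientation, so 96 arrays in all. The controls carry no treatment, and every value below is a log2 ratio of treated to untreated RNA, with 1 unit meaning a doubling. A set value is the mean of the set's arrays, or its 1 array where the other was listed as 0, and values of single arrays are named as such. The labels do not say that sets came from separate cultures, so each p-value rests on variation among sets that may be purely technical. Ratios hold no level, so whether macrophage marker genes were present at a high level could not be read from these values, and fewer cells and less RNA per cell cannot be told apart.

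CXCL9 and CXCL10 are secreted by macrophages and other cells and draw activated T cells and natural killer cells that carry CXCR3. Cxcl9 is a classical target of interferon gamma, which acts through JAK kinases, and of the interferon-induced factor IRF1. Cxcl10 is induced by interferon gamma too, and also by type I interferon and by Toll-like receptor 4 through IRF3 and NF-kB.

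Both genes lie on the minus strand of mouse chromosome 5 in the RefSeq annotation of GRCm38.p6, in a cluster with Cxcl11. Cxcl9 spans 92321331 to 92328079, Cxcl10 spans 92346638 to 92348889, and 18558 bases lie between them. Their promoters are printed because the results turn on how differently the 2 genes answered LPS and IFNG. The 250 bases upstream of the RefSeq start are given 5′ to 3′ on the gene's strand, for Cxcl9 from chr5:92328080-92328329 and for Cxcl10 from chr5:92348890-92349139, both minus strand, with motif matches in capitals.
Cxcl9: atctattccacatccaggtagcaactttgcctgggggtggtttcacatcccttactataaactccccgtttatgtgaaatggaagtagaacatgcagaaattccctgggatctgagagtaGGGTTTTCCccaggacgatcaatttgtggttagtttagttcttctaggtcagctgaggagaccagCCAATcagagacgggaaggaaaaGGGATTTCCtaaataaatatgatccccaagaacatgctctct
Cxcl10: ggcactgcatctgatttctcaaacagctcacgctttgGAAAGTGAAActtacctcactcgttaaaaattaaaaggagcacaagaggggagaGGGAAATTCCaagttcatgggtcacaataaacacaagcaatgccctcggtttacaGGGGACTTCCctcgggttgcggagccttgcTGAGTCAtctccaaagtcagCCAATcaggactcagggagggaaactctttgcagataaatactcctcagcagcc

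The search covered both strands for an interferon-stimulated response element (ISRE, GAAANNGAAA), a gamma-activated site (GAS, TTCNNNGAA), NF-kB sites (GGGNNTTCC and GGGNNNTTCC), an AP-1 site (TGANTCA) and CCAAT. Positions count back from the base before the start, -1. The Cxcl9 window holds GGGTTTTCC at -130 to -122, GGGATTTCC at -42 to -34 and a CCAAT box at -65 to -61. The Cxcl10 window holds an ISRE, GAAAGTGAAA, at -213 to -204. It also has GGGAAATTCC at -159 to -150, GGGGACTTCC at -104 to -95, an AP-1 match TGAGTCA at -74 to -68 and CCAAT at -54 to -50. The shorter NF-kB form GGGACTTCC at -103 to -95 overlaps GGGGACTTCC. Of the 32851 mouse promoter windows of this length, 2.98% hold the ISRE, 7.02% the GAS, 4.98% and 4.65% the shorter and the longer NF-kB form, 6.75% the AP-1 form and 33.8% CCAAT. The ISRE letters were found in the Cxcl10 window and not in that of Cxcl9, and the GAS letters in neither. A match is a description of letters, and its absence says nothing about the factor. The longest run the windows share is cagccaatcag, 11 bases around the CCAAT box, which 0.399% of the windows hold.

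The direction of the ratios was taken from the dye labels and checked with known target genes. Tnf was above 0 on 63 of 63 LPS array values, Il1b on 72 of 72, and in IFNG groups Irf1 on 18 of 18 and Socs1 on 36 of 36. Between 13508 and 15004 features had a value on an array. The rest were listed as exactly 0 and were read as missing. Ratios end at 6.64, the log2 of 100, a limit reached by 14 values of the whole data set.

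The 4 features differed in how often they were listed as 0, and the zeros fell at opposite ends of the response for the 2 genes. Cxcl9 M34815 had a value on 95 arrays and was listed as 0 on 1. Cxcl9 NM_008599 had a value on 42 arrays and was listed as 0 on 54. Cxcl10 NM_021274 had a value on 71 arrays and was listed as 0 on 25, and Cxcl10 M86829 had a value on 31 and was listed as 0 on 65. For Cxcl9, the zeros of NM_008599 lay mostly where the other feature showed no response: M34815 had a median of 0.059 there (range -0.36 to 2.72, 54 arrays), against 4.35 where NM_008599 had a value (range -0.33 to 6.64, 41 arrays). For Cxcl10 the order was turned round. Where M86829 was listed as 0, NM_021274 had a median of 3.88 (range 2.97 to 5.03, 40 arrays), and where M86829 had a value the median was 1.16 (range 0.33 to 3.86, 31 arrays). On all 25 arrays where NM_021274 was listed as 0, M86829 was listed as 0 as well. The zeros did not follow a dye: NM_021274 had 13 with treated RNA in Cy3 and 12 in Cy5, and M86829 had 34 and 31. Why a feature is listed as 0 was not tested, and the Cxcl10 values of a group with zeros rest on the arrays that remain.

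**Figure D1:**
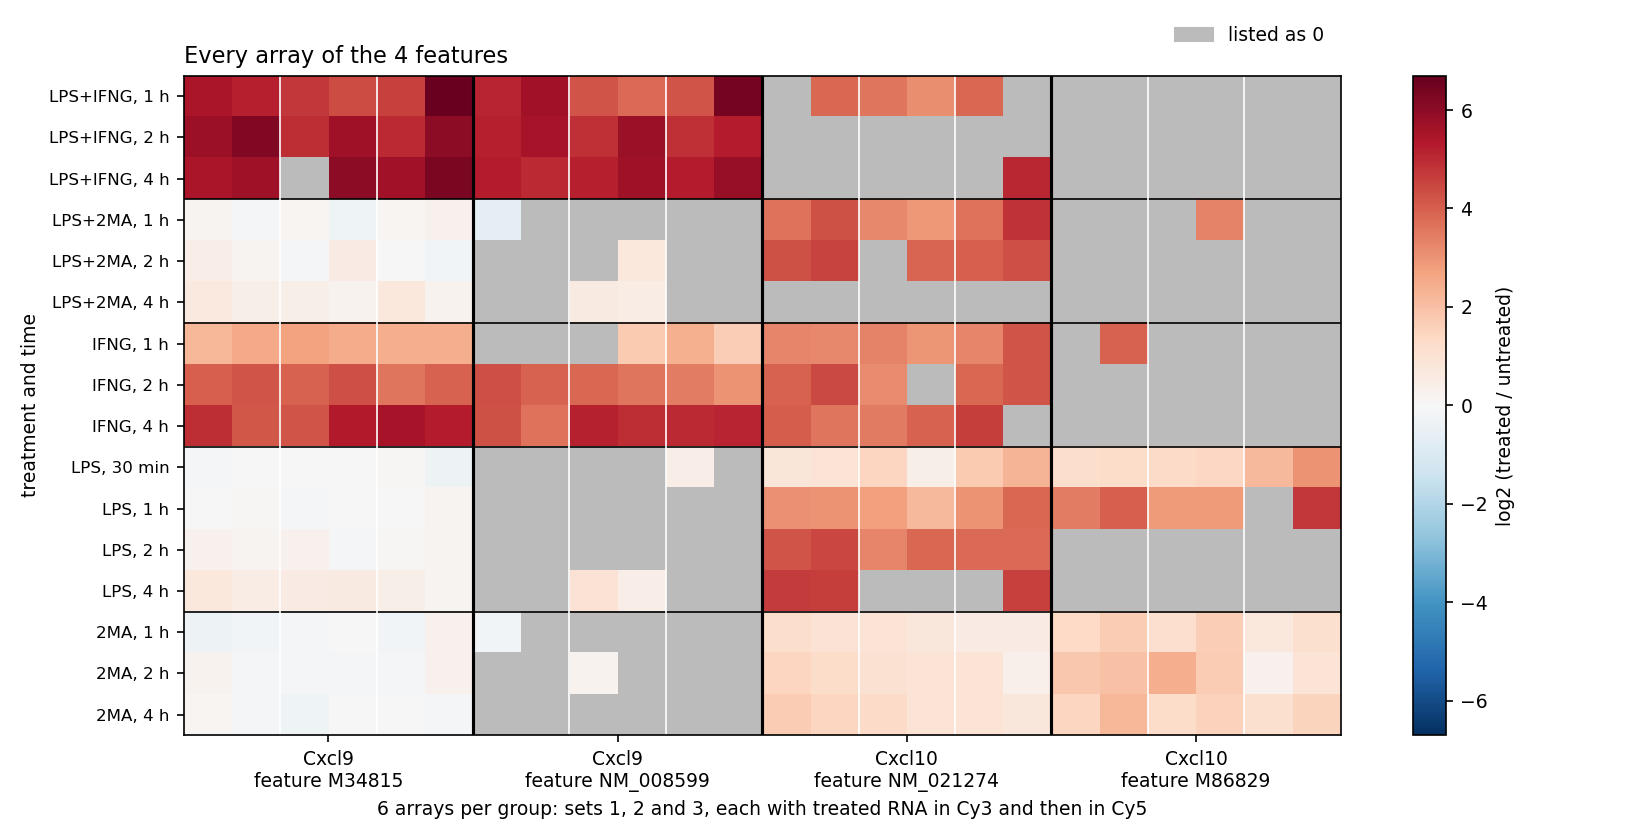
Log2 ratio of treated to untreated RNA on each of the 96 arrays (rows are the 16 groups, columns the 6 arrays of each group) for the 4 features, with grey for values listed as 0. The grey cells of Cxcl10 lie in groups with LPS or IFNG, including all 6 arrays of NM_021274 in LPS+IFNG at 2 h and in LPS+2MA at 4 h, while those of Cxcl9 NM_008599 lie in groups without IFNG and on 3 of the 6 IFNG arrays at 1 h.

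**Figure D2:**
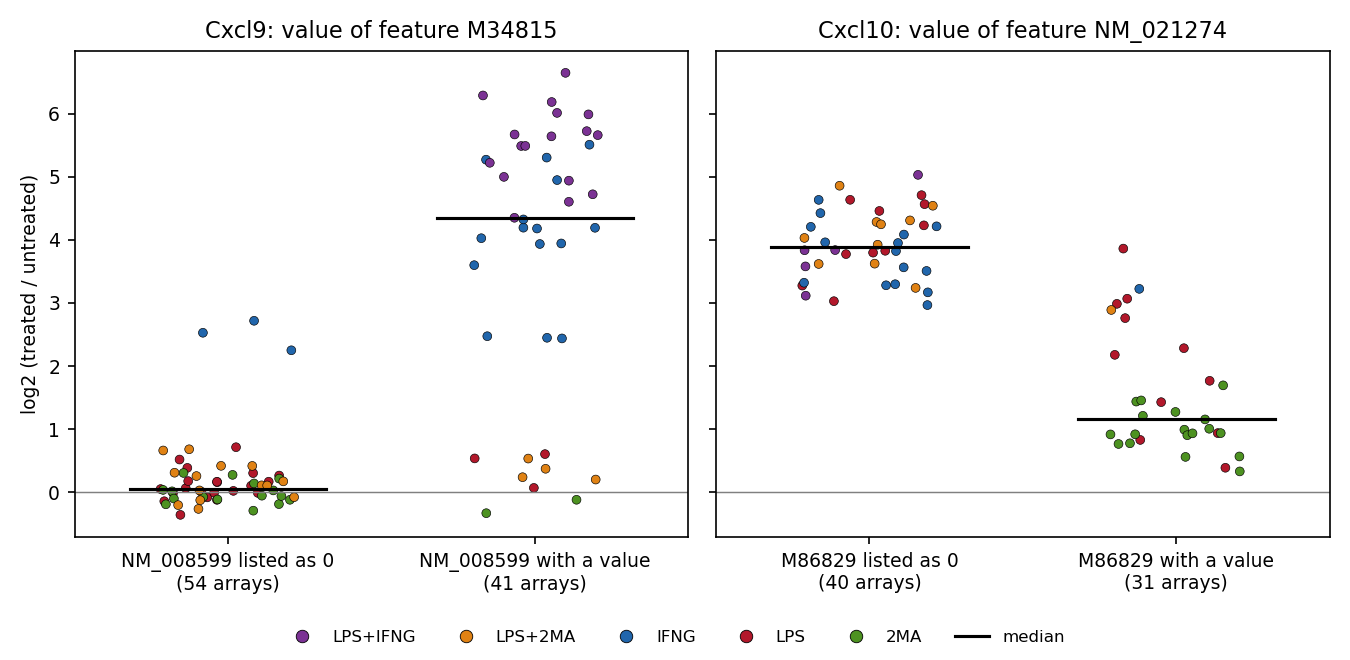
Log2 ratio of one feature of a gene on single arrays (points, coloured by treatment), split by whether the other feature of that gene was listed as 0 or had a value, with the median as a line. For Cxcl9 the arrays with the other feature at 0 have a median of 0.059 and the rest 4.35, and for Cxcl10 they have a median of 3.88 and the rest 1.16.

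Where both features of a gene had a value, they were offset from each other. Cxcl9 M34815 minus NM_008599 had a median of 0.24 over 41 arrays (range -0.98 to 0.91), and M34815 was the higher one on 30 of them. Cxcl10 NM_021274 minus M86829 had a median of -0.49 over 31 arrays (range -1.42 to 0.60), and NM_021274 was the lower one on 27.

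Cxcl9 rose with every treatment that held IFNG, and rose most with LPS+IFNG. In LPS+IFNG at 1 h the sets of M34815 had 5.35, 4.53 and 5.62, at 2 h 5.95, 5.30 and 5.49, and at 4 h 5.57, 6.01 and 5.96. The means were 5.17 ± 0.57, 5.58 ± 0.33 and 5.85 ± 0.24 (SD, n = 3 sets each), which are 36.0-fold, 47.9-fold and 57.6-fold over untreated cells. The response at 1 h, the lowest of the 3 means, already ranked 2nd of the 14958 features tested, and it ranked 4th at 2 h and 3rd at 4 h. The 4 h mean was not tested against the 1 h mean. Each of these responses passed the test (adjusted p = 3.65e-27, 2.32e-28 and 4.28e-29), as did 7.47%, 18.7% and 31% of all features tested. All tests here use 1 spread per feature from all 16 groups, and the set SD of M34815 was as low as 0.067 in LPS at 1 h. The SEs and intervals that involve LPS+IFNG at 1 h are thus narrower than its own sets would give. One array of set 3 at 1 h sat on the ceiling of 6.64, and 1 array at 4 h was listed as 0.

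With IFNG alone, Cxcl9 climbed in steps. M34815 had 2.39, 2.60 and 2.44 at 1 h, 4.11, 4.13 and 3.77 at 2 h, and 4.56, 4.75 and 5.39 at 4 h. The means were 2.48 ± 0.11, 4.00 ± 0.21 and 4.90 ± 0.43 (SD, n = 3 sets each), or 5.56-fold, 16.02-fold and 29.8-fold. No set value of one time overlapped those of another, though single arrays did (highest 4.32 at 2 h, lowest 4.18 at 4 h). How many of all features have sets without overlap was not counted. All 3 means passed the test (adjusted p = 1.83e-16, 3.44e-23 and 2.54e-26), beside 1.13%, 3.4% and 11.6% of all features.

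Without IFNG, the Cxcl9 ratios stayed small. In LPS+2MA, M34815 averaged 0.066 at 1 h, 0.14 at 2 h and 0.44 ± 0.12 at 4 h (SD, n = 3 sets), and only the last passed the test (adjusted p = 0.00978). In LPS alone it averaged -0.059 at 30 min, 0.026 at 1 h, 0.15 at 2 h and 0.49 ± 0.18 at 4 h (SD, n = 3 sets), again with only the last past the threshold (adjusted p = 0.00468). The 4 h sets had 0.54, 0.31 and 0.47 in LPS+2MA, and 0.62, 0.57 and 0.28 in LPS, so all 6 lay above 0, and the means were 1.36-fold and 1.40-fold. Calls among all features came to 5.14%, 16% and 30.5% in LPS+2MA at 1, 2 and 4 h, and to 1.08%, 5.35%, 14.4% and 26.2% in LPS at 30 min and 1, 2 and 4 h. Without set 1 neither small rise passed the threshold (0.39 with adjusted p = 0.143 in LPS+2MA, and 0.42 with adjusted p = 0.121 in LPS), nor did either with zeros kept, with arrays scaled to the same spread, or with treated RNA in Cy5 alone. In 2MA alone M34815 averaged -0.073, 0.0081 and -0.034 at 1, 2 and 4 h, none past the threshold, where 1.6%, 1.38% and 1.95% of all features were called. The 95% intervals of these 3 means reached from -0.35 to 0.28 at most.

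The second feature of Cxcl9, NM_008599, gave the same order of groups where it could be measured. Its sets had 5.36, 4.01 and 5.31 in LPS+IFNG at 1 h, 5.38, 5.35 and 5.06 at 2 h, and 5.12, 5.44 and 5.55 at 4 h. In IFNG it had 1.77 and 2.01 in the 2 sets with a value at 1 h, 4.15, 3.70 and 3.22 at 2 h, and 3.95, 5.05 and 5.04 at 4 h. All 6 group means passed the test, with adjusted p between 7.55e-12 and 0.00136. The IFNG response at 1 h, 1.89, did not pass without set 3 (1.77 from 1 set, adjusted p = 0.143). In the other 10 groups it had a value in at most 1 set and was not tested.

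**Figure D3:**
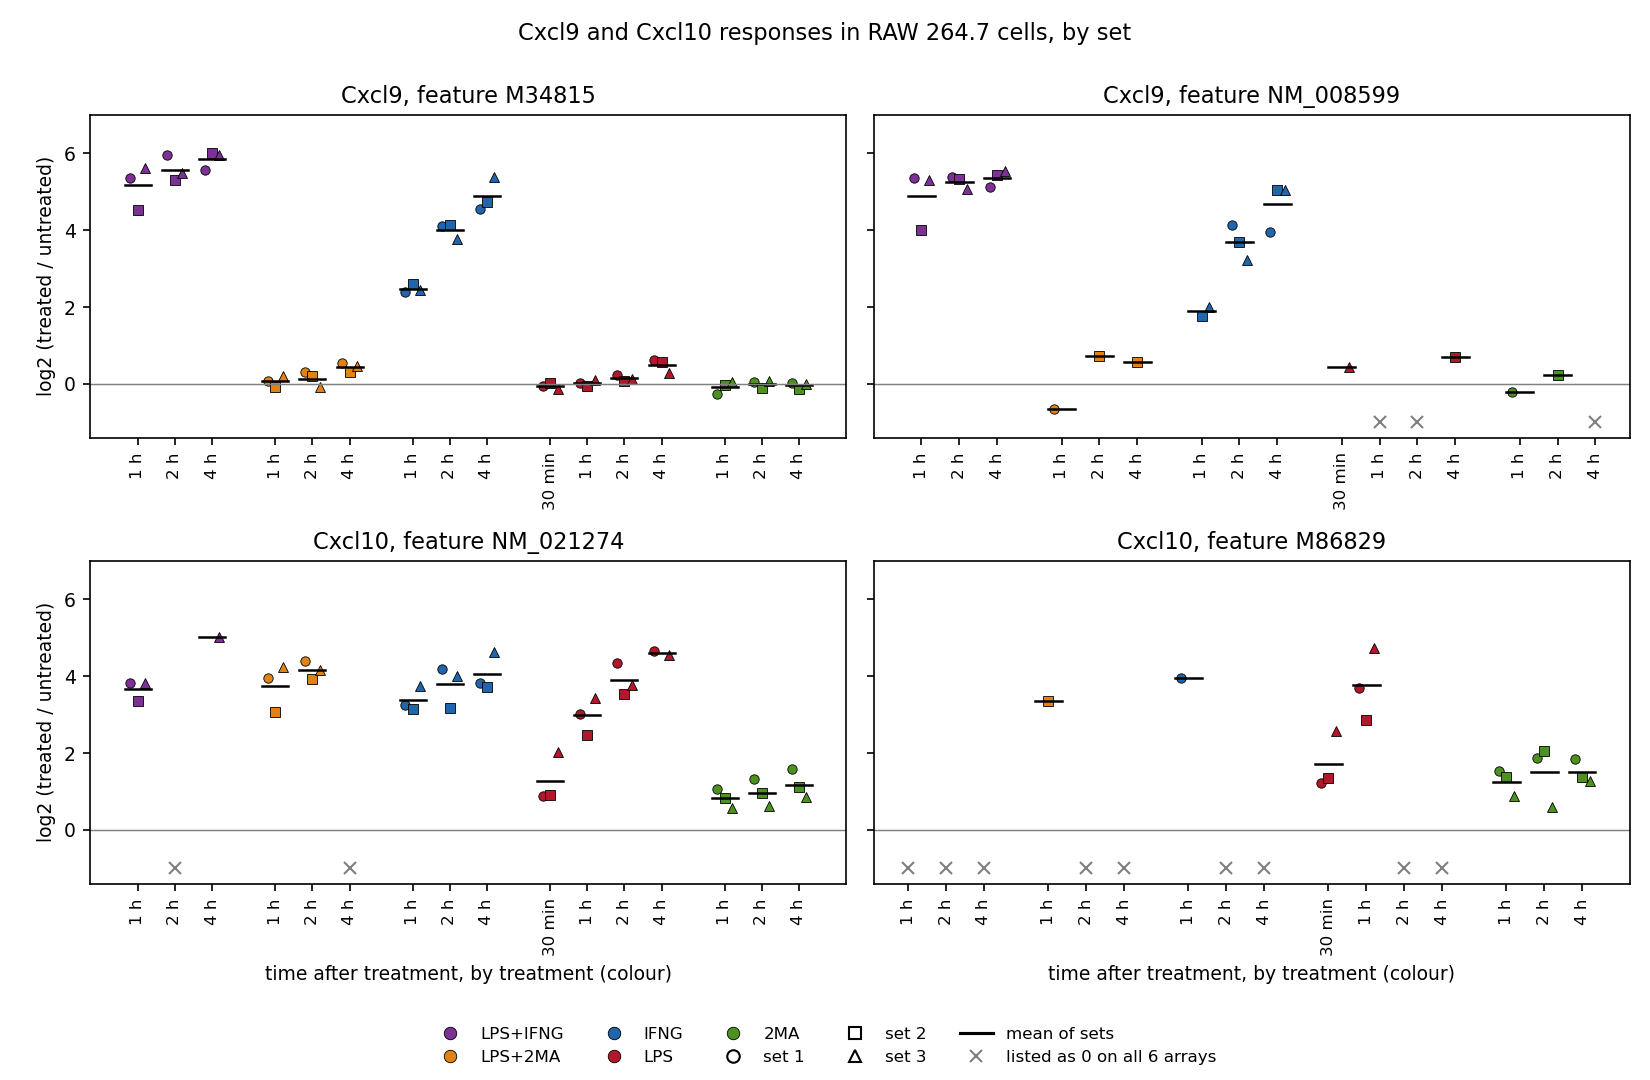
Log2 ratio of treated to untreated RNA in each set (points; circle, square and triangle for sets 1, 2 and 3) with the group mean as a line, for the 4 features by treatment and time, and a cross where all 6 arrays were listed as 0. Cxcl9 M34815 lies between 4.53 and 6.01 in LPS+IFNG and at or under 0.62 in every group without IFNG, while Cxcl10 NM_021274 lies at or above 2.47 in every LPS, IFNG and combined set from 1 h on that has a value.

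The order of the 16 group means of M34815 ran from LPS+IFNG at 4, 2 and 1 h through IFNG at 4, 2 and 1 h down to the groups without IFNG. Neighbours at the top were not told apart: in LPS+IFNG the step between 1 and 2 h was 0.41 (95% interval 0.026 to 0.80, adjusted p = 0.291) and that between 2 and 4 h 0.27 (-0.12 to 0.65, adjusted p = 0.624), where 4.74% and 6.24% of all features were called. Leaving out 1 set in turn moved these steps to between 0.23 and 0.68 and to between 0.046 and 0.59. The step between 1 and 2 h passed with array weights (0.77, adjusted p = 4.05e-05), and that between 2 and 4 h fell below 0 with zeros kept, with scaled arrays and with array weights. In IFNG alone, M34815 at 2 h was 1.53 above that at 1 h (adjusted p = 1.55e-05, 0.45% of features called), and at 4 h 0.90 above that at 2 h (adjusted p = 0.00634, 1.35% called). The later step failed without set 1 (1.12, adjusted p = 0.072) and without set 3 (0.53, adjusted p = 0.457), and with arrays scaled to the same spread it was -0.19, and the earlier one no longer passed (1.52, adjusted p = 0.0644). The same IFNG steps of Cxcl9 NM_008599 were 1.80 (adjusted p = 0.0531) and 0.99 (adjusted p = 0.281), and neither passed (1.57 to 2.15 and 0.58 to 1.59 with 1 set left out). In LPS the steps of M34815 were 0.12 (-0.27 to 0.51) and 0.34 (-0.043 to 0.73), neither past the threshold, where 2.33% and 6.24% of features were called.

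Adding IFNG to LPS raised Cxcl9 more than almost any other feature that could be tested. LPS+IFNG minus LPS was 5.14 at 1 h, 5.43 at 2 h and 5.36 at 4 h (SE 0.19 each), which ranked 2nd, 1st and 1st of all features tested, with adjusted p = 9.95e-22, 1.44e-22 and 2.35e-22. Calls among all features in these differences came to 1.06%, 2.43% and 3.87%. Features with too few values, such as both Cxcl10 features at 2 and 4 h, have no place in these ranks. The difference did not change detectably between 1 and 4 h (0.22, 95% interval -0.33 to 0.76, adjusted p = 0.999, 1.26% of features called).

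Adding LPS to IFNG raised Cxcl9 too, and by less at each later time. LPS+IFNG minus IFNG was 2.69 at 1 h, 1.58 at 2 h and 0.95 at 4 h (SE 0.19 each, adjusted p = 2.61e-12, 1.12e-07 and 0.000486), beside 2.67%, 7.25% and 10.1% of features called. At 1 h this meant 36.0-fold over untreated cells in LPS+IFNG and 5.56-fold in IFNG. The sets did not overlap at any of these times, though single arrays of M34815 did at 4 h (lowest 5.49 in LPS+IFNG, highest 5.51 in IFNG). How many of all features have sets without overlap was not counted. Between 4 h and 1 h the difference changed by -1.74 (95% interval -2.29 to -1.20, adjusted p = 5.98e-05), and 2.88% of features changed. Ratios end at 6.64, and M34815 in IFNG alone had 2.48 at 1 h, 4.00 at 2 h and 4.90 at 4 h. That left less room above IFNG at each later time, and the part of this limit in the change was not tested. NM_008599 gave 3.00 at 1 h, 1.58 at 2 h and 0.69 at 4 h, with adjusted p = 0.000104, 0.00716 and 0.292, and a change of -2.31 between 4 h and 1 h (adjusted p = 0.019). That change failed without any 1 of the sets (-2.49 to -2.13), the 2 h difference failed without set 3 (1.44, adjusted p = 0.0967), and the 4 h difference passed with set within time as a block (0.69, adjusted p = 0.049). With arrays scaled to the same spread the M34815 differences at 2 and 4 h were 0.016 and -0.12, and the change was -2.04 with adjusted p = 0.0716, and the 4 h difference also failed with zeros kept (-0.052) and with treated RNA in Cy3 alone (0.68, adjusted p = 0.118).

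LPS+IFNG was also set against the sum of the LPS and the IFNG response on the log2 scale, where a sum stands for folds that multiply. For Cxcl9 M34815 the joint response was 5.17 at 1 h and the sum 2.50, at 2 h 5.58 and 4.15, and at 4 h 5.85 and 5.39. The joint response exceeded the sum by 2.67 at 1 h (95% interval 2.20 to 3.14, adjusted p = 1.58e-09) and by 1.43 at 2 h (0.96 to 1.91, adjusted p = 0.000461). At 1 h the excess ranked 2nd of 14806 features, of which 0.115% were called in either direction, and 0.336% were called at 2 h. At 4 h the excess of 0.46 did not pass (-0.012 to 0.93, adjusted p = 0.576, 2.44% of features called). The sum of 5.39 at 4 h lay nearest to the ratio limit of 6.64, and the part of that limit in the excess was not tested. The 2 h excess failed without set 1 (1.35, adjusted p = 0.158), with zeros kept (1.43, adjusted p = 0.271) and with treated RNA in Cy3 alone (1.14, adjusted p = 0.0683), and with scaled arrays neither passed (1.88 with adjusted p = 0.257 at 1 h, and -0.14 at 2 h).

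Cxcl10 answered every treatment, and in LPS, the only treatment sampled at 30 min, a rise was called by then. In LPS+IFNG at 1 h the sets of NM_021274 had 3.83, 3.35 and 3.84, from 4 arrays with a value. At 2 h all 6 arrays were listed as 0, and at 4 h the only array with a value had 5.03, the highest ratio of this feature on any array. In LPS+2MA the sets had 3.95, 3.06 and 4.24 at 1 h and 4.39, 3.92 and 4.17 at 2 h, and all 6 arrays were listed as 0 at 4 h. In both treatments that combine LPS with a second ligand, 4 h was thus left with at most 1 array value.

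With IFNG alone, NM_021274 had 3.25, 3.14 and 3.75 at 1 h, 4.19, 3.17 and 4.01 at 2 h, and 3.82, 3.73 and 4.63 at 4 h. With LPS alone it had 0.88, 0.91 and 2.02 at 30 min, 3.03, 2.47 and 3.44 at 1 h, 4.34, 3.55 and 3.78 at 2 h, and 4.67 and 4.56 in the 2 sets with a value at 4 h. With 2MA alone it had 1.07, 0.84 and 0.57 at 1 h, 1.32, 0.96 and 0.62 at 2 h, and 1.58, 1.10 and 0.86 at 4 h. All 71 array values of this feature were above 0.

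The mean Cxcl10 response was 3.67 ± 0.28 in LPS+IFNG at 1 h, or 12.8-fold (SD, n = 3 sets). In LPS+2MA it was 3.75 ± 0.61 and 4.16 ± 0.24 at 1 and 2 h. In IFNG it was 3.38 ± 0.33, 3.79 ± 0.55 and 4.06 ± 0.50 at 1, 2 and 4 h. In LPS it was 1.27 ± 0.65, 2.98 ± 0.49 and 3.89 ± 0.41 at 30 min, 1 h and 2 h (SD, n = 3 sets each), and 4.62 over 2 sets at 4 h. These 10 responses all passed the test, with adjusted p between 3.74e-15 and 0.00105. At 1 h of IFNG, Cxcl10 ranked 3rd of 15001 features. The rise at 30 min of LPS was 2.42-fold and failed without set 3 (0.90, adjusted p = 0.196), and it also failed with zeros kept, with scaled arrays and when that group was fitted alone.

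2MA, under which no Cxcl9 response passed the test, came with a small rise of Cxcl10. The means were 0.83 ± 0.25 at 1 h, 0.97 ± 0.35 at 2 h and 1.18 ± 0.36 at 4 h (SD, n = 3 sets each), or 1.77-fold, 1.96-fold and 2.26-fold, and all 18 arrays were above 0. The rise passed the test at 2 h (adjusted p = 0.0235) and at 4 h (adjusted p = 0.00331), and not at 1 h (adjusted p = 0.0658). With set as a replicate block the 1 h rise passed as well (0.83, adjusted p = 0.0139). The 2 h call was lost without set 1 (0.79, adjusted p = 1.00) and without set 2 (0.97, adjusted p = 0.0599), and the 4 h call without set 1 (0.98, adjusted p = 0.43). Both also failed with zeros kept and with scaled arrays, and the 2 h call failed with treated RNA in Cy5 alone and when that group was fitted alone.

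The other Cxcl10 feature, M86829, had a value in all 3 sets only in LPS at 30 min and 1 h and in 2MA. In LPS it had 1.21, 1.36 and 2.58 at 30 min and 3.70, 2.86 and 4.73 at 1 h, and in 2MA 1.52, 1.37 and 0.88 at 1 h, 1.88, 2.06 and 0.60 at 2 h, and 1.84, 1.39 and 1.26 at 4 h. Its means were 1.71 and 3.77 in LPS (adjusted p = 0.012 and 9.05e-07), and 1.26, 1.51 and 1.50 in 2MA (adjusted p = 0.0747, 0.0308 and 0.0271). The LPS 30 min call failed without set 1 (1.97, adjusted p = 0.175) or set 2 (1.89, adjusted p = 0.0696), and the 2MA calls at 2 and 4 h likewise (1.33 and 1.33 without set 1, 1.24 and 1.55 without set 2). Of the other 11 groups, IFNG at 1 h had 1 array with a value (3.95) and LPS+2MA at 1 h had 1 (3.35), and the rest were listed as 0 on every array.

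Of the differences between 2 treatments that could be tested for Cxcl10, all from NM_021274, none passed. Calls among all features came to 1.06% and 2.67% for LPS+IFNG minus LPS and minus IFNG at 1 h. They came to 0.114% and 0.0402% for LPS+2MA minus LPS at 1 and 2 h. For IFNG minus LPS they were 2.66%, 6.66% and 9.29% at 1, 2 and 4 h. At 1 h LPS+IFNG minus LPS was 0.69 (95% interval 0.022 to 1.36, adjusted p = 1.00) and LPS+IFNG minus IFNG was 0.29 (-0.38 to 0.96). LPS+2MA minus LPS was 0.77 at 1 h (0.10 to 1.44) and 0.27 at 2 h (-0.40 to 0.94). IFNG minus LPS was 0.40 at 1 h (-0.27 to 1.07), -0.10 at 2 h (-0.77 to 0.57) and -0.56 at 4 h (-1.31 to 0.19). Of these 7 intervals, 4 reach past 1 log2 unit in either direction. The differences at the later times in which one group was listed as 0 were not tested. Those tested rest on the arrays that remain, with 2 of 6 listed as 0 in LPS+IFNG at 1 h and 3 of 6 in LPS at 4 h. M86829 had a value on 5 LPS arrays at 1 h, on 0 in LPS+IFNG and on 1 each in IFNG and LPS+2MA. Whether the arrays listed as 0 held higher ratios was not tested. The step of Cxcl10 in LPS between 1 and 2 h was 0.91 (0.24 to 1.58, adjusted p = 0.202), and that between 2 and 4 h was 0.72 (-0.025 to 1.47, adjusted p = 0.348). In IFNG the steps were 0.41 and 0.27, neither past the threshold (0.14 to 0.60 and 0.096 to 0.59 with 1 set left out).

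For Cxcl9 M34815 the same contrasts looked otherwise. IFNG minus LPS was 2.45 at 1 h, 3.86 at 2 h and 4.41 at 4 h (adjusted p = 6.71e-12, 2.13e-17 and 2.14e-19), which ranked 11th, 4th and 2nd, where 2.66%, 6.66% and 9.29% of features were called. LPS+2MA minus LPS was 0.040, -0.0077 and -0.050 at 1, 2 and 4 h, with intervals within -0.44 to 0.43, and 0.114%, 0.0402% and 0.283% of features were called.

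The joint Cxcl10 response at 1 h fell short of the sum. LPS+IFNG gave 3.67, and the sum of IFNG (3.38) and LPS (2.98) was 6.36. The joint response minus the sum was -2.69 (95% interval -3.51 to -1.87, adjusted p = 0.000622), the lowest of 14806 features. No value of either Cxcl10 feature exceeded 5.03 on any array, and 2 of the 6 LPS+IFNG arrays at 1 h were listed as 0. The sum of 6.36 thus lay above every value these features gave, and whether they could show such a ratio was not tested. The call was lost without set 1 (-2.81, adjusted p = 0.261) and without set 3 (-2.35, adjusted p = 0.0583), with zeros kept (-3.97, adjusted p = 0.0769) and with scaled arrays (-4.36, adjusted p = 0.0666). At 2 and 4 h the joint response had too few values for the test.

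**Figure D4:**
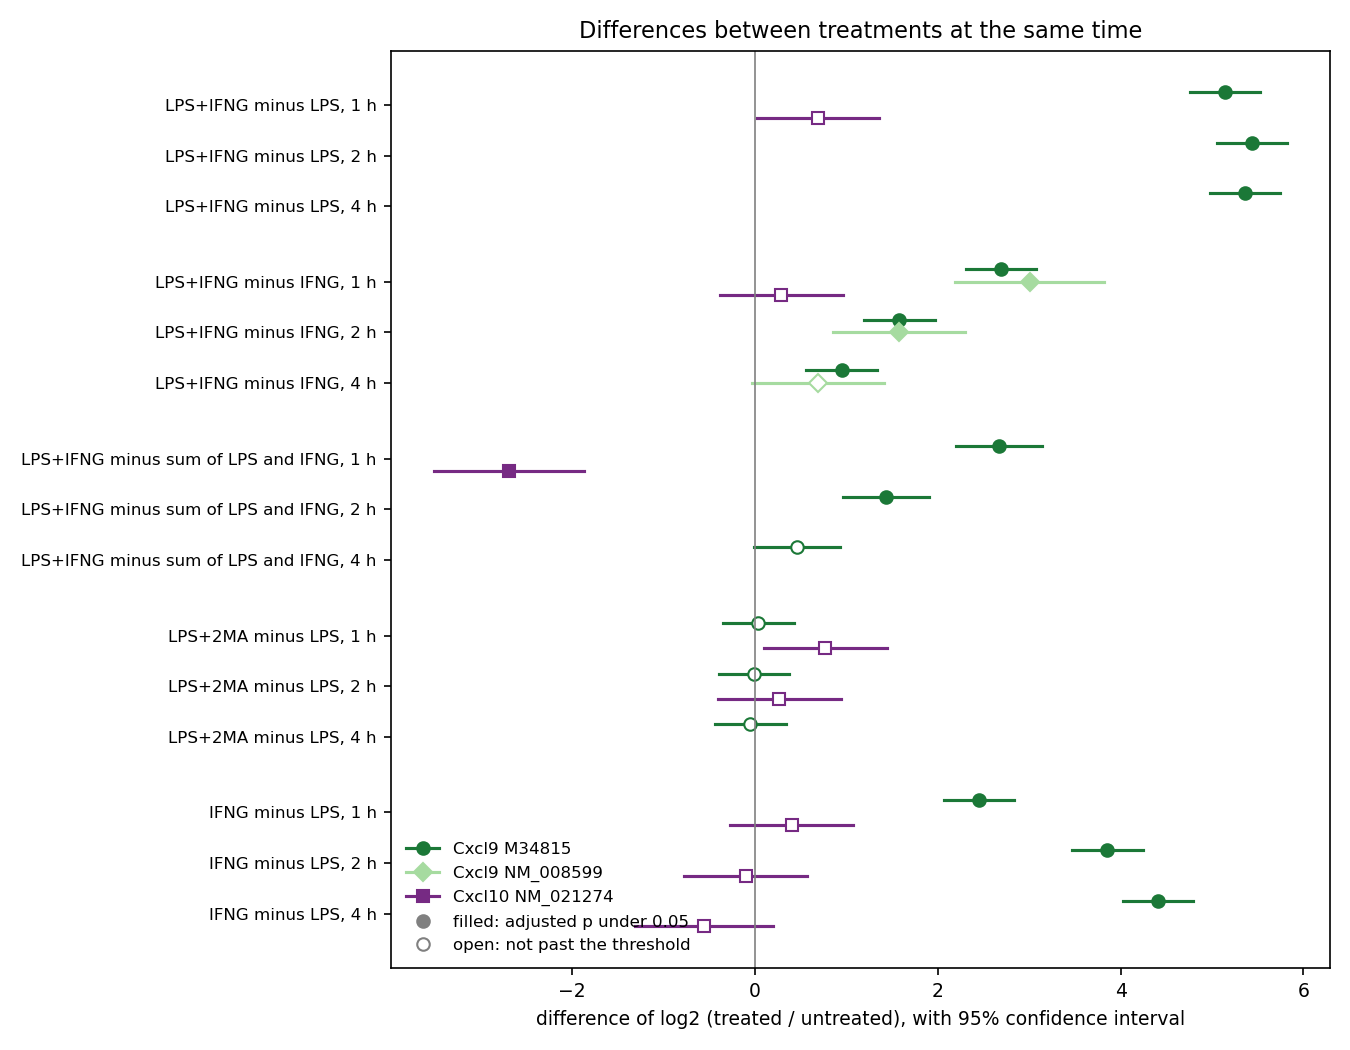
Differences between treatments at the same time for Cxcl9 and Cxcl10, as differences of log2 ratios with 95% confidence intervals (filled symbols passed the threshold of an adjusted p under 0.05). The 3 LPS+IFNG minus LPS differences of Cxcl9 M34815 lie at 5.14 to 5.43 and its LPS+IFNG minus IFNG differences at 2.69, 1.58 and 0.95, while LPS+IFNG minus the sum at 1 h lies at 2.67 for Cxcl9 and at -2.69 for Cxcl10 NM_021274.

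Genes around CXCR3 were looked at from a list of chemokines, the receptor itself and the protease DPP4, which trims CXCR3 ligands. Beside Cxcl9 and Cxcl10, 5 of them were tested. Cxcl11, annotated as a transcribed pseudogene in this RefSeq build, was the only one to rise, and its neighbour position in the cluster, 10654 bases from Cxcl10, is shown by the RefSeq coordinates. Its feature AF179872 had means of 3.06, 5.54 and 4.99 in LPS+IFNG at 1, 2 and 4 h, 1.50, 3.38 and 4.63 in IFNG, and 0.40, 1.75 and 4.26 in LPS at the same times. Its feature NM_019494 had 4.56 in LPS+IFNG at 1 h, and, like Cxcl10 NM_021274, fewer than 2 sets with a value in LPS+IFNG at 2 and 4 h and in LPS+2MA at 4 h. In LPS, NM_019494 had 1.13, 3.25 and 4.59 at 1, 2 and 4 h, so at 1 h it was already higher than AF179872. Both Cxcl11 features thus rose with LPS at 2 and 4 h, when Cxcl9 M34815 had 0.15 and 0.49. In 2MA at 4 h NM_019494 had 1.72 and AF179872 0.48, beside 1.18 for Cxcl10 NM_021274. Cxcr3 itself fell by 1.12 in LPS+IFNG (adjusted p = 5.11e-10), by 0.80 in IFNG (adjusted p = 3.01e-06) and by 0.98 in LPS (adjusted p = 1.87e-08) at 4 h. Pf4, Ppbp and Dpp4 did not pass the test in any of these 3 groups.

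Among 13 features of 8 other CXC chemokine genes, 4 rose and 2 fell in LPS+IFNG at 4 h, where 14.5% of all features rose and 16.5% fell. Cxcl16, the ligand of CXCR6, rose by 2.73 in LPS+IFNG, 1.37 in IFNG and 1.77 in LPS at 4 h. Cxcl2, which attracts neutrophils, rose by 4.41 in LPS+IFNG and by 4.49 in LPS at 1 h with its feature X53798, and had -1.09 in IFNG (adjusted p = 0.268). The other Cxcl2 feature, NM_009140, had 0.31 in LPS at 1 h (adjusted p = 0.913) and -1.27 at 4 h (adjusted p = 0.0539), so the 2 features disagree. Among CC, C and CX3C chemokines, 17 of 37 features rose and 3 fell in LPS+IFNG at 4 h, with a median of 0.16 (all features -0.0028). In IFNG at 4 h 6 of 40 rose and 4 fell, with a median of 0.040 (all features -0.0037, 6.33% rose and 5.26% fell). Ccl5, Ccl7 and Ccl12, which draw T cells and monocytes, were among those that rose, with up to 3.77, 5.15 and 4.27 in LPS+IFNG at 4 h. In 2MA at 4 h, 6 of 37 features of this list rose and 0 fell, where 1.45% of all features rose and 0.502% fell.

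The genes of interferon and LPS signalling to Cxcl9 and Cxcl10 gave 17 of 31 features up and 5 down in LPS+IFNG at 4 h (median 0.64), 11 up and 0 down in IFNG (median 0.16, and 14 up and 0 down at an unadjusted p under 0.05), and 16 of 30 up and 3 down in LPS (median 0.43). Of all features, 14.5% rose and 16.5% fell in LPS+IFNG at 4 h, 6.33% and 5.26% in IFNG, and 11.9% and 14.3% in LPS. Irf1, whose protein binds interferon response elements, rose by 3.87 in LPS+IFNG and 3.45 in IFNG at 1 h, while in LPS it had 0.60 (adjusted p = 0.0514). Irf8, another interferon regulatory factor, had 2.90 in LPS+IFNG, 2.04 in IFNG and -0.24 in LPS at 1 h, and it rose by 1.01 in LPS at 4 h (adjusted p = 1.42e-06). Ifnb1, the type I interferon of the LPS response, had 1.54 in LPS+IFNG, 0.032 in IFNG (adjusted p = 1.00) and 2.09 in LPS at 1 h. Socs1, a feedback inhibitor of JAK kinases, rose by 3.15 and 3.16 with its 2 features in LPS+IFNG at 1 h. Of 18 features of 11 chemokine receptor genes, 2 rose and 3 fell in LPS+IFNG at 4 h, a share near that of all features called there (31%). Cxcr2 (1.78) and Ccr1 (1.77) rose, and Cx3cr1 (-2.27), Cxcr3 (-1.12) and Ccr3 (-0.49) fell. Of 4 macrophage marker genes, Fcgr1 (1.73), Adgre1 (0.84) and Cd68 (0.25) rose in that group and Csf1r (-1.29) fell. Of 15 features of 10 marker genes of T cells, B cells, neutrophils and fibroblasts, S100a9 (0.35) and Cd4 (0.25) rose in that group, a share near the 14.5% of all features that rose. None of the 15 was called by limma in IFNG at 4 h (1 at an unadjusted p under 0.05), where 11.6% of all features were. The part of these shifts in the Cxcl9 and Cxcl10 values was not tested.

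**Figure D5:**
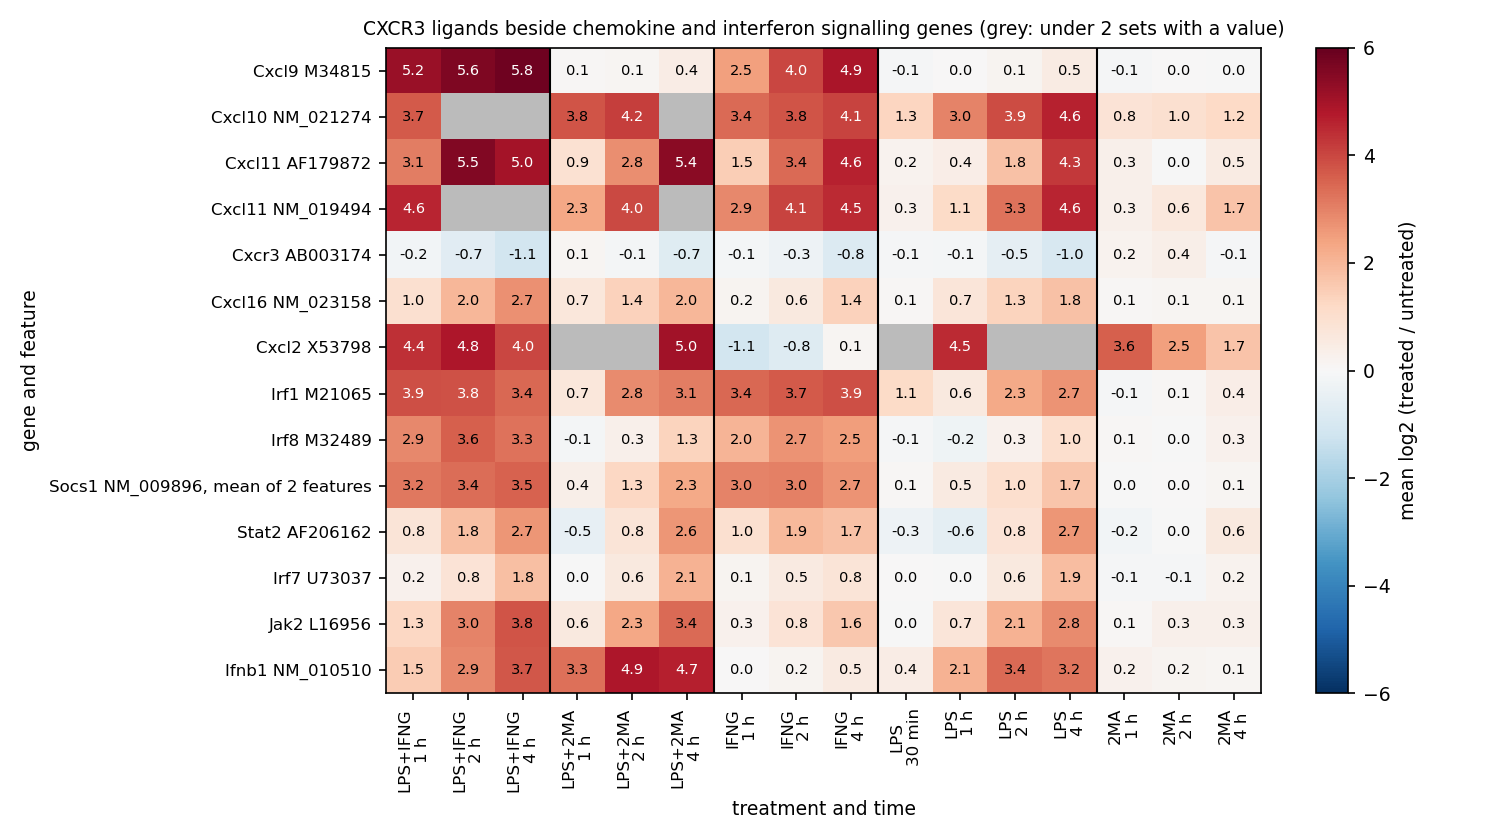
Mean log2 ratio of treated to untreated RNA in the 16 groups for Cxcl9, Cxcl10 and chemokine and interferon signalling genes taken from the lists, with grey where under 2 sets had a value. Irf8 is highest where IFNG was given, as Cxcl9 is, with a smaller 1.32 in LPS+2MA and 1.01 in LPS at 4 h, and Ifnb1 is high where LPS was given, while Cxcl10 and Cxcl11 are high with either.

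The features whose 16 group means ran most like Cxcl9 M34815, among 12593 with 1 gene symbol and a value in every group, were 3 features of Ltb4r1, a leukotriene B4 receptor, with Pearson r of 0.979, 0.977 and 0.974. Irf8 followed at 0.962, and Crem, a cAMP-responsive transcription factor, at 0.959. The other 5 ranged between 0.942 and 0.924: Enc1, Tceanc2, Bach1, Inpp5b and Sting1. Ltb4r1 had 1.39 to 2.65 in LPS+IFNG at 1 h, 2.07 to 2.68 in IFNG at 4 h, and -0.21 to 0.036 in LPS at 4 h over its 3 features. For Cxcl10 NM_021274, over the 13 groups it has and 12643 candidates, the nearest was Trex1, a DNA exonuclease, at 0.926, with Il10ra, the interleukin 10 receptor chain, at 0.885 and Cxcl11 NM_019494 at 0.883. Several others on that list, such as Mcf2 (0.902), had means under 0.3 in LPS+IFNG at 1 h and in IFNG and LPS at 4 h, so that their likeness is one of shape and not of size. These correlations describe points that share arrays and untreated samples, and group means are few. NM_008599 and M86829 had a value in at least 2 sets in too few groups for this comparison.

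The other named genes around the cluster had far smaller ratios. In LPS+IFNG at 4 h Sdad1 had 0.79, Art3 0.64, Naaa 0.34 and Scarb2 0.32, and the Ppef2 features had 0.40 and 0.054.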

How the data were processed

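RNA of RAW 264.7 cells was measured on 96 2-colour arrays, 16 groups of 3 sets in 2 dye orientations, as given by the labels. The deposited values are log2 ratios of Cy5 to Cy3, read as such from the values and the dye labels. Image analysis, background correction and normalization by the authors are not given in the sources used here. Values of exactly 0 (1277 to 2773 per array, 753 features on all arrays) were read as missing. Ratios with treated RNA in Cy3 were turned in sign, and a set value is the mean of its arrays. Raw dye-swap pairs correlated between -0.784 and 0.396, 10 of 48 above 0. The 1 sample whose description gives 2MA in nM was kept at 500 uM, as its channel label states.

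With limma 3.58.1 in R 4.3.3, 1 mean per group was fitted to the 48 set values of all features (32 residual and 4.86 prior degrees of freedom, median residual SD 0.213). Features were tested where each compared group had 2 of 3 sets. Tests were two-sided, with Benjamini-Hochberg adjustment within each comparison and a threshold of 0.05, and were tested on simulated data. Figures used matplotlib 3.10.9. Gene names come from the platform annotation updated through the RefSeq table, with 13738 features of 1 gene, 52 of several and 2491 unnamed. Promoters come from RefSeq GRCm38.p6. Genes, gene lists and tests were chosen with earlier results of these data known. Named genes are all features of Cxcl9 and Cxcl10, members of the lists, the direction check genes and the 10 features most alike each one. The lists cover CXCR3 and related genes, other chemokines, signalling, chemokine receptors and cell markers. List members named in the text and the figure were picked after their values were seen.

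Same-numbered sets were described as paired where their deviations from the group means correlated above 0.1 in every pair of compared groups. This held for 12 of the 15 differences between treatments, with exceptions at LPS+2MA minus LPS at 1 h (lowest 0.0999) and at IFNG minus LPS and LPS+IFNG minus the sum at 2 h (lowest -0.034). The main fit held no set term, so its differences were tested as unpaired. Set was fitted as a block only as an alternative setting.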

Additional observations from a re-analysis of the deposited data

Results flagged for a closer look

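By a test of the departure itself, the joint response at 1 h lay above the sum of both single responses for Cxcl9 and below it for Cxcl10. Cxcl9 M34815 exceeded the sum by 2.67 at 1 h and 1.43 at 2 h. Cxcl10 NM_021274 fell short of it, at -2.69 at 1 h, with 2 of 6 LPS+IFNG arrays listed as 0. The Cxcl10 sum was 6.36, above every value its features gave (highest 5.03), and whether they could show such a ratio was not tested. The Cxcl10 call was lost without set 1, without set 3, with zeros kept and with scaled arrays. Both Cxcl9 calls were lost with scaled arrays. The 2 h call was also lost without set 1, with zeros kept and with treated RNA in Cy3 alone.

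What LPS adds to IFNG differed between times for Cxcl9, by a test of the change between 4 h and 1 h. The change was -1.74 for M34815 and -2.31 for NM_008599. The M34815 call was lost with scaled arrays, and the NM_008599 call without any 1 of the sets. IFNG alone stood nearer to the ratio limit of 6.64 at 4 h than at 1 h, and the part of that limit in the change was not tested. Groups of 3 sets are too small to look for single outlying sets.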

How the results depend on the processing

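For Cxcl9 M34815 and Cxcl10 NM_021274, 813 of 884 recomputed values kept their direction and their side of the threshold, counting as kept 25 uncalled values whose sign changed within 1 SE. Causes of changes were not tested beyond what a setting does by construction. The responses of Cxcl9 M34815 to LPS+IFNG and IFNG, and its LPS+IFNG minus LPS and IFNG minus LPS, kept their calls in every setting run.

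With zeros kept as 0, calls were lost for Cxcl10 in LPS at 30 min (1.27), 2MA at 2 h (0.97) and 4 h (1.18) and the joint response minus the sum at 1 h (-3.97), and for Cxcl9 in LPS (0.49) and LPS+2MA (0.44) at 4 h, the sum at 2 h (1.43) and the IFNG step between 2 and 4 h (0.90). Signs turned for Cxcl10 in LPS+IFNG minus LPS (-0.59) and minus IFNG (-0.99) at 1 h, LPS+2MA minus LPS at 2 h (-0.39), IFNG minus LPS at 4 h (0.97), the LPS step between 2 and 4 h (-1.58) and the IFNG step between 1 and 2 h (-0.12). They turned for Cxcl9 in LPS+IFNG minus IFNG (-0.052) and minus the sum (-0.54) at 4 h, the LPS+IFNG step between 2 and 4 h (-0.74) and the change of LPS+IFNG minus LPS between 4 h and 1 h (-0.79).

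With arrays scaled to the same spread, calls were lost for Cxcl10 in LPS at 30 min (1.75), 2MA at 2 h (1.02) and 4 h (1.26) and the joint response minus the sum (-4.36), and for Cxcl9 in LPS (0.39) and LPS+2MA (0.36) at 4 h, the sum at 1 h (1.88), LPS+IFNG minus IFNG at 2 h (0.016), the IFNG step between 1 and 2 h (1.52) and the change of LPS+IFNG minus IFNG (-2.04). Signs turned for Cxcl10 in LPS+IFNG minus IFNG at 1 h (-0.74), IFNG minus LPS at 2 h (0.73) and 4 h (0.34), and the LPS (-0.28) and IFNG (-0.66) steps between 2 and 4 h. For Cxcl9 M34815 they turned in the sum at 2 h (-0.14) and 4 h (-0.50), LPS+IFNG minus IFNG at 4 h (-0.12), the IFNG step between 2 and 4 h (-0.19), both LPS+IFNG steps (-0.39 and -0.33) and the change of LPS+IFNG minus LPS (-1.06). For NM_008599 they turned in LPS+IFNG minus IFNG at 4 h (-0.20), the IFNG step between 2 and 4 h (-0.11) and both LPS+IFNG steps (-0.38 and -0.37).

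With treated RNA in Cy5 alone, calls were lost for Cxcl10 in 2MA at 2 h (0.82) and Cxcl9 in LPS (0.43) and LPS+2MA (0.31) at 4 h and the IFNG step between 2 and 4 h (0.77), and Cxcl10 turned in IFNG minus LPS at 2 h (0.29) and the IFNG step between 2 and 4 h (-0.56). With Cy3 alone, Cxcl9 lost the sum at 2 h (1.14) and LPS+IFNG minus IFNG at 4 h (0.68). Cxcl10 in 2MA at 1 h was called with Cy3 alone (0.88), features of a gene averaged (1.04), both orientations required (0.83), the group fitted alone (0.83) and set as a replicate block (0.83). Requiring both orientations turned the Cxcl10 IFNG step between 2 and 4 h (-0.33). Fitting the compared groups alone lost Cxcl10 in LPS at 30 min (1.27) and 2MA at 2 h (0.97) and the Cxcl9 IFNG step between 2 and 4 h (0.90). Array weights called the Cxcl9 LPS+IFNG step between 1 and 2 h (0.77) and turned the next one (-0.13). The replicate block changed no other call of M34815 or NM_021274, and set within time as a block changed none of theirs.

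Leaving out 1 set in turn gave ranges of 0.90 to 1.47 for Cxcl10 in LPS at 30 min, 0.79 to 1.14 and 0.98 to 1.34 in 2MA at 2 and 4 h, and -2.90 to -2.35 for the joint response minus the sum. For Cxcl9 they were 0.42 to 0.59 in LPS and 0.39 to 0.51 in LPS+2MA at 4 h, 1.35 to 1.60 for the sum at 2 h, 0.53 to 1.12 for the IFNG step between 2 and 4 h and -0.11 to 0.51 for the change of LPS+IFNG minus LPS. For the LPS+IFNG step of NM_008599 between 1 and 2 h they were -0.11 to 0.68. Counts of called features moved by over 1.5 times in 35 of 39 comparisons without set 1, 27 with Cy5 alone, 25 with Cy3 alone, 11 with set as a block and 14 of 15 with set within time as a block. In LPS+IFNG at 2 h the count was 2817, and ran between 1419 (group alone) and 11101 (array weights).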

Other observations

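Cxcl10 was not the only gene whose features had values early and were listed as 0 later, by a criterion set after the Cxcl10 zeros were seen. With values on all 6 LPS arrays at 30 min and on at least 5 of 2MA at 1 h, and zeros on all 6 LPS+IFNG arrays at 2 h and at least 5 at 4 h, 6 features of 5 genes were found. Beside both features of Cxcl10 these were Acod1, the enzyme that makes itaconate, Il1rn, the interleukin 1 receptor antagonist, Irgm1, an interferon-inducible GTPase, and Mt2, a metallothionein. Acod1 had 1.63 at 30 min and 3.73 at 1 h of LPS, against 1.71 and 3.77 for Cxcl10 M86829.

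Over all features, zeros at 4 h were more frequent among those with a high response at 1 h. Of 110 features at or above 2 log2 units in LPS+IFNG at 1 h, 8 (7.27%) were listed as 0 on at least 5 of 6 arrays at 4 h, against 37 of 14509 (0.255%) under that value. In IFNG these were 2 of 19 (10.5%) and 15 of 14770 (0.102%), and in LPS 6 of 59 (10.2%) and 12 of 14675 (0.0818%). The reason for the zeros was not tested.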
